A study of Mus musculus with 23 samples.

Results

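Solute carriers are the membrane proteins that move nutrients, ions, vitamins and metabolites across the cell surface and across the membranes of organelles. The genes described here are those whose symbol starts with Slc, a family number, the letter a and a member number. They had to average at least 10 CPM (a gene's count over the library's total, per 1000000 counts) in at least 1 of 4 lymphocyte populations sorted from mouse liver. Among 35645 entries with counts, 347 had such a symbol, and 146 of these reached the threshold. The measured levels therefore chose the members, and that they are expressed in at least 1 population is a description and not a result. Of the 146, 111 reached 10 CPM in all 4 populations. The 5 members Slc9a3r1, Slc9a3r2, Slc4a1ap, Slc7a6os and Slc2a4rg-ps carry the name of a carrier gene but do not encode carriers, which leaves 141 carriers.

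Carriers do not burn fuel themselves: most follow a gradient, and many are coupled to the sodium gradient that the sodium-potassium ATPase builds. In lymphocytes glucose enters through the GLUT family (Slc2a), lactate crosses through the monocarboxylate transporters (Slc16a), and large neutral amino acids enter through Slc7a5 paired with the heavy chain Slc3a2. The mitochondrial carriers (Slc25a) exchange nucleotides, phosphate and metabolites across the inner mitochondrial membrane. Hepatocytes have a carrier set of their own, such as the bile acid transporter Slc10a1 and the amino acid transporter Slc38a4, so carriers can also show RNA of other liver cells.

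The study concerns granzyme C, a protease of cytotoxic granules encoded by Gzmc, in natural killer (NK) cells and type 1 innate lymphoid cells (ILC1s). NK cells circulate, whereas ILC1s stay in tissue. RNA was sequenced in bulk from 15 sorted liver populations of 6 mice, 1 library per population and mouse. ATAC-seq, an assay of accessible chromatin, covered 8 further libraries. NK cells were sorted as positive for an S1pr5eGFP reporter and gave 4 libraries, from mice 1, 4, 5 and 6. DP cells were ILC1s with present granzyme C and a fate-map mark of its expression (GzmC+GzmcFM+, mice 3 to 6, 4 libraries). FMSP cells were marked ILC1s in which granzyme C was no longer detected (GzmC-GzmcFM+, mice 3 to 6, 4 libraries). DN cells were ILC1s with neither (GzmC-GzmcFM-, mice 2, 4 and 6, 3 libraries). The labels name these reporters but give no strain, age, sex, treatment or full genotype, so alleles that all groups may share are not given in the sources used here. A library is named below by its population and mouse, so DN2 is DN of mouse 2. In bulk RNA fewer cells of a type and less RNA per cell cannot be told apart.

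RNA libraries held 51641248 to 73309063 counts. Levels below are CPM on library sizes adjusted by TMM (trimmed mean of M values), unless the rule's plain CPM is named. The sorting genes followed the labels. Gzmc averaged 2.31 ± 1.34 CPM in the 4 NK libraries (mean ± SD), 11.4 ± 1.87 in the 3 of DN, 30.4 ± 8.68 in the 4 of FMSP and 374 ± 83.6 in the 4 of DP. S1pr5 averaged 509.9 ± 248 in NK and at most 60.01 ± 34.9 in an ILC1 population. Eomes, which marks NK cells, was lower in ILC1s, and the ILC1 genes Itga1 and Il7r were higher, with log2 fold changes of -5.36 ± 0.54, 4.85 ± 1.02 and 4.59 ± 0.62 (SE, n = 11 against 4). The ILC1 populations differed in Eomes. Against NK it stood at -2.45 ± 0.78 in DN (edgeR adjusted p = 0.121), -6.32 ± 0.84 in FMSP and -7.30 ± 0.88 in DP. EdgeR called it lower in DP than in DN (adjusted p below 0.05), though not without DN2.

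Some libraries stood apart. DN2 held RNA of genes of the early embryo that lymphocytes are not known for. Cer1 and Lefty1, secreted inhibitors of Nodal signalling, were at 3792 and 3373 CPM in DN2, against at most 2.62 and 5.34 in the other 14 libraries. A list of 15 such genes, chosen after their values were seen, summed to 11071 CPM in DN2 and to 0.738 to 24.4 CPM elsewhere. Gsc and Foxh1, the homeobox and forkhead factors among them, had 0 counts in all 14 other libraries and 189 and 69.7 CPM in DN2. The summed level of 10 NK and ILC1 identity genes was 7755 CPM in DN2, under the range of the others (10930.0 to 23501). Hepatocyte markers (18 genes, none of them at 0 in all NK libraries) summed to 874 CPM in DN2, 1065 in FMSP5 and 2200.0 in FMSP6, against 67.4 to 388 in the other 12. The first principal component of the RNA held 19.4% of the variance and set NK1, DN2, FMSP3 and DP3, all from mice 1 to 3, apart from the 11 libraries of mice 4 to 6. Results that rest on these libraries are given with and without them.

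The threshold fell among genes of the same kind. Just inside it were Slc25a42 at 10.1 CPM in its highest population, Slc19a2 at 10.2 and Slc25a13 at 10.4, and just outside were Slc25a35 at 9.84, Slc25a43 at 8.65 and Slc26a6 at 8.49. Without DN2, 9 members no longer reached 10 CPM in any population: Slc7a7, Slc7a8, Slc16a13, Slc38a4, Slc39a8, Slc12a2, Slc11a1, Slc5a6 and Slc25a13. Of the 35 members under 10 CPM in at least 1 population, 24 were under it in NK, 21 in DP, 19 in FMSP and 7 in DN. The members' share of all counts was 1.11% in DN2 and 0.751% to 0.880% in the other 14 libraries.

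ILC1s and NK cells differed in carriers of several classes, in both directions. Fatty acid carrier Slc27a1, intracellular glucose carrier Slc2a8, monocarboxylate carrier Slc16a6, aromatic amino acid carrier Slc16a10 and iron carrier Slc11a2 were higher in ILC1s. Amino acid carriers Slc7a5 and Slc7a1, pyrimidine nucleotide carrier Slc25a33, sugar phosphate carrier Slc37a2 and proton exchanger Slc9a7 were lower. Against NK, 19 of 146 members were called in the mean of the 3 ILC1 populations (edgeR quasi-likelihood test, adjusted p below 0.05 over 17124 genes). Of these 9 were higher, where 2.90% of all genes tested were called higher, and 10 were lower, where 3.02% were called lower. A member could enter by its level on 1 side alone. Only 3 of the 9 and 7 of the 10 reached 10 CPM in all 4 populations. The counts are therefore not read as an excess over all genes. The median log2 difference was -0.03 over the members and 0.08 over all genes. All 146 members passed the filter on low counts. Without DN2 the calls were 8 higher and 10 lower, of which 17 were among the 19: Slc12a7 and Slc17a9 were lost and Slc16a1 was added. Within mice 4 to 6 alone 31 members were called, including all 19, and with the mouse as a block 26, without Slc12a7. Over all genes tested the share called rose too, from 5.92% to 13.2% within mice 4 to 6 and 12.7% with the block. The count fell to 11 without NK1 and 12 without NK5, where the share of all genes called fell too, to 4.72% and 4.30%.

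**Figure D1:**
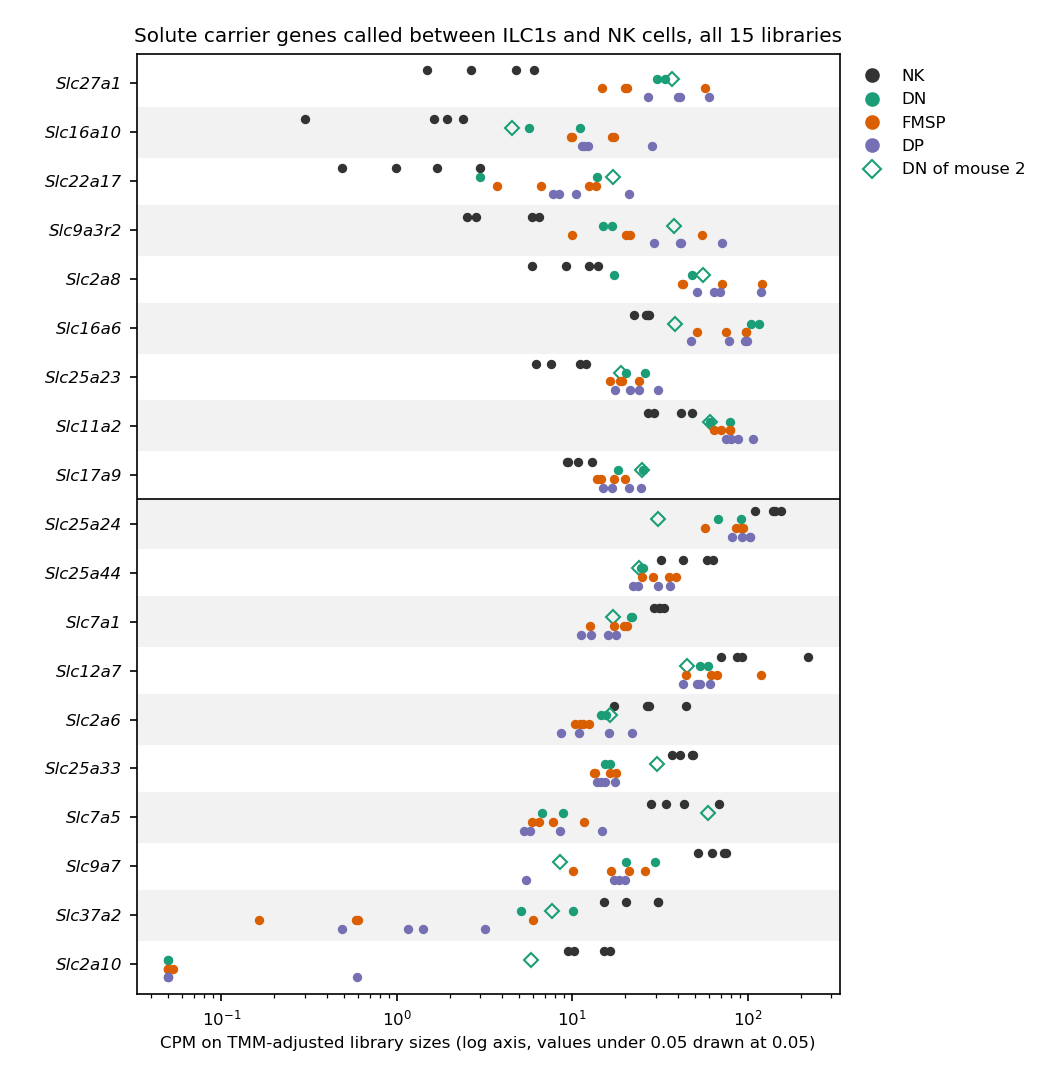
CPM (log axis) of the 19 members called between ILC1s and NK cells, 1 row per gene and 1 point per library, coloured by population, with DN2 as an open diamond. Genes above the line were called higher in ILC1s and genes below it lower. In Slc7a5 the DN2 point, at 59.2 CPM, lies among the NK points, while the other ILC1 points lie at 5.32 to 14.9.

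Hexose and monocarboxylate transporters had 12 members, of which 3 were called higher and 2 lower. Slc2a8 encodes GLUT8, a hexose carrier of internal membranes. Its CPM was 12.5, 5.896, 14.03 and 9.205 in NK of mice 1, 4, 5 and 6, 55.8, 48.3 and 17.3 in DN of mice 2, 4 and 6, 121, 71.3, 42.8 and 42.3 in FMSP of mice 3 to 6 and 119, 64.2, 69.3 and 51.2 in DP of mice 3 to 6. Every ILC1 library was above every NK library, the nearest being DN6, and the log2 fold change was 2.52 ± 0.42 (edgeR adjusted p = 0.00131). In both FMSP and DP the library of mouse 3 was the highest.

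Slc16a6 encodes MCT7, a monocarboxylate transporter. It was at 27.4, 22.5, 26.2 and 27.1 CPM in NK and, in the ILC1 libraries, at 38.6 at the lowest (DN2), 96.04 at the median and 116 at the highest (DN4). The groups did not overlap and the log2 fold change was 1.68 ± 0.30 (edgeR adjusted p = 0.00245). The 3 lowest ILC1 values were those of DN2, DP3 and FMSP3, all from mice 2 and 3, and within mice 4 to 6 the log2 fold change was 1.93 ± 0.14 (adjusted p = 5.85e-06).

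Slc16a10 belongs to the monocarboxylate family by sequence and carries aromatic amino acids. It was nearly absent from NK, at 0.3002, 2.38, 1.64 and 1.95 CPM, and stood at 4.54, 11.02 and 5.69 in DN, 9.91, 17.3, 16.8 and 9.86 in FMSP and 11.3, 28.5, 12.3 and 11.7 in DP. No ILC1 library reached down to the NK values, DN2 being the lowest of them, and DP4 was above all others. The log2 fold change was 2.88 ± 0.56 (edgeR adjusted p = 0.00493).

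The hexose carriers Slc2a10 and Slc2a6 were lower in ILC1s. Slc2a10, GLUT10, was at 9.44, 15.1, 10.2 and 16.5 CPM in NK and at 5.84 in DN2. In the 10 other ILC1 libraries it ran from 0 to 0.596 CPM, with 8 of them at 0 counts. Its fitted log2 fold change was -6.30 ± 1.64 (edgeR adjusted p = 0.0327) and -9.62 ± 1.74 without DN2 (0.00372), values that at such counts depend on the prior count of the fit. The call was lost in 7 of 15 fits that left out 1 library (NK1, NK4, NK5, NK6, DN4, DN6 or FMSP4, adjusted p 0.0508 to 0.0799). Slc2a6, GLUT6 of lysosomal membranes, was at 44.7, 17.2, 27.2 and 26.7 in NK and 8.68 to 21.9 in ILC1s, with DP3 above the lowest NK library, NK4. Its log2 fold change was -1.09 ± 0.27 (adjusted p = 0.0226), not called without NK1, NK5 or NK6 (0.0552 to 0.146).

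Slc16a1, the lactate carrier MCT1, depended on DN2. It was even in NK, at 36.1, 30.9, 36.5 and 34.6 CPM, and low in DN4 and DN6 (3.49 and 7.94), in FMSP (3.28, 2.91, 0 and 11.01) and in DP (3.23, 5.07, 3.02 and 1.23). In DN2 it was at 184 CPM, above every NK library. Over all libraries its log2 fold change was -1.85 ± 0.92 and not called (edgeR adjusted p = 0.326). Without DN2 the 2 sides did not overlap, the log2 fold change was -3.03 ± 0.82 and it was called (0.0415). The blocked fit gave -3.34 ± 0.98 (0.0555) and mice 4 to 6 alone -2.97 ± 0.95 (0.0649), neither of them called.

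Slc2a3 and Slc2a1, GLUT3 and GLUT1, bring glucose into activated lymphocytes. Slc2a3 was at 224, 216, 202 and 161 CPM in NK, 129 to 235 in the ILC1 libraries other than DN2, and 1425 in DN2. Slc2a1 was at 142, 67.3, 77.7 and 94.1 in NK, 31.9 to 118 in the same 10 libraries and 272 in DN2. Neither was called over all libraries (edgeR adjusted p = 0.723 and 0.854). Slc2a1 was lower in ILC1s within mice 4 to 6, by a log2 fold change of -0.64 ± 0.19 (adjusted p = 0.0457), and with the mouse as a block (0.0344).

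Amino acid transporters had 20 members, 2 of them called lower and 0 higher. Classes were set by symbol, so the aromatic amino acid carrier Slc16a10, called higher above, is not among the 20. Slc7a5, LAT1, imports leucine and other large neutral amino acids. It was at 68.9, 43.4, 34.4 and 28.1 CPM in NK, 59.2, 8.86 and 6.699 in DN, 7.77, 6.502, 5.89 and 11.7 in FMSP and 14.9, 5.77, 5.32 and 8.57 in DP. All ILC1 libraries but DN2 were below every NK library. The log2 fold change was -1.87 ± 0.46 (edgeR adjusted p = 0.02301) and, without DN2, -2.44 ± 0.32 (2.11e-04). The call was lost without NK1 or NK4 (0.0564 to 0.111).

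The heavy chain Slc3a2, which takes Slc7a5 to the surface, was not called. Slc3a2 was at 306, 189, 236 and 216 CPM in NK and 161 to 302 in ILC1s, with a log2 fold change of -0.19 ± 0.20 (edgeR adjusted p = 0.744). Slc7a1, the arginine and lysine carrier CAT1, was at 31.1, 31.5, 33.5 and 29.4 in NK and 11.2 to 21.9 in the 11 ILC1 libraries. The sides did not overlap, and the log2 fold change was -0.86 ± 0.19 (adjusted p = 0.0128, and 0.0558 without NK5). The glutamine carriers Slc1a5, Slc38a1 and Slc38a2 overlapped between the sides, with log2 fold changes of 0.32 ± 0.13, 0.12 ± 0.14 and -0.21 ± 0.35, none of them called. Slc38a2 parted by mouse: it was at 89.1, 124, 84.7 and 96.4 CPM in the libraries of mice 1 to 3 and 218 to 309 in the 11 of mice 4 to 6. Slc38a6 and Slc36a1, an amino acid carrier of the SNAT family and the lysosomal proton-coupled carrier PAT1, were called only within mice 4 to 6 or with the block. Their log2 fold changes within mice 4 to 6 were -0.54 ± 0.09 and 1.28 ± 0.26 (adjusted p = 0.001497 and 0.00747, and 0.00194 and 0.0705 with the block).

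Mitochondrial carriers were the largest class, with 34 members, 1 called higher and 3 lower. Slc25a33 carries pyrimidine nucleotides into mitochondria. It was at 37.1, 41.4, 48.5 and 48.9 CPM in NK, 30.6, 15.4 and 16.3 in DN, 13.4, 16.4, 17.7 and 13.3 in FMSP and 13.8, 15.3, 17.6 and 14.6 in DP. Of the ILC1 libraries only DN2 came near NK, and the log2 fold change was -1.38 ± 0.20 (edgeR adjusted p = 4.36e-04), or -1.52 ± 0.17 without DN2 (5.23e-05).

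Slc25a23 and Slc25a24 are calcium-sensing carriers that exchange ATP-magnesium for phosphate, and they differed in opposite directions. Slc25a23 was at 12.01, 7.59, 6.24 and 11.1 CPM in NK and 16.4 to 30.7 in ILC1s, without overlap, a log2 fold change of 1.22 ± 0.26 (edgeR adjusted p = 0.00829). Slc25a24 was at 110.5, 155, 144 and 140.0 in NK and 30.6 to 104 in ILC1s, also without overlap, DN2 being the lowest. Its log2 fold change was -0.80 ± 0.22 (adjusted p = 0.0447), and 12 of 15 fits that left out 1 library lost the call (0.0525 to 0.1499). The 3 fits that kept it left out DN2, DN6 or FMSP3.

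Slc25a44, a carrier of branched-chain amino acids, was at 63.4, 31.9, 42.7 and 58.4 CPM in NK and 22.3 to 39.2 in ILC1s, which overlapped. Its log2 fold change was -0.80 ± 0.20 (edgeR adjusted p = 0.0289), not called without NK1, NK5, NK6 or DN6 (0.0504 to 0.135). The carriers of oxidative phosphorylation were not called. Slc25a5 and Slc25a3, the adenine nucleotide and phosphate carriers that feed ATP synthase, were at 575 ± 77.7 and 317 ± 8.69 CPM in NK (n = 4) and 588 ± 99.05 and 296 ± 26.9 in DP (n = 4). Their log2 fold changes in the ILC1 mean were -0.03 ± 0.16 and -0.11 ± 0.12 (adjusted p = 0.969 and 0.771).

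Phosphate, sulfate and organic anion transporters had 11 members, 2 called higher and 1 lower. Slc37a2, a sugar phosphate exchanger of the endoplasmic reticulum, was at 30.7, 20.2, 15.2 and 31.01 CPM in NK, 7.65, 10.1 and 5.09 in DN, 6.002, 0.601, 0.165 and 0.582 in FMSP and 1.17, 0.4901, 3.18 and 1.403 in DP. Every ILC1 library was below every NK library, with DN between NK and most FMSP and DP libraries. The log2 fold change was -3.12 ± 0.66 (edgeR adjusted p = 0.00878). Slc22a17, the receptor of lipocalin 2, rose from 0.488, 0.994, 2.97 and 1.69 CPM in NK to 2.99 to 21.2 in ILC1s, DN4 standing next to NK5, with a log2 fold change of 2.80 ± 0.66 (adjusted p = 0.0174, lost without NK1, NK4 or NK6 at 0.0534 to 0.0697). Slc17a9, which loads ATP into vesicles, was at 10.8, 9.51, 13.02 and 9.38 in NK and 13.9 to 25.2 in ILC1s. Its log2 fold change was 0.86 ± 0.23 (adjusted p = 0.0404), and the call was lost in 12 of 15 fits that left out 1 library (0.0509 to 0.151), all but those without FMSP3, FMSP5 or DP3.

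Ion and pH transporters had 15 members, 2 called lower. Slc9a7, a sodium-proton exchanger of the Golgi, was at 73.5, 52.3, 74.9 and 62.5 CPM in NK, 8.54, 29.6 and 20.2 in DN, 10.05, 16.7, 21.1 and 26.03 in FMSP and 5.47, 17.3, 20.1 and 18.4 in DP. The sides were far apart, and the lowest values were those of DP3, DN2 and FMSP3. The log2 fold change was -1.90 ± 0.33 (edgeR adjusted p = 0.00195). Slc12a7, the potassium-chloride cotransporter KCC4, overlapped: NK1 was at 221 and the other NK libraries at 87.4, 92.9 and 70.6, with FMSP3 at 119 among ILC1s of 42.6 CPM upwards. Its log2 fold change of -1.01 ± 0.28 (adjusted p = 0.0423) missed the threshold in the blocked fit (0.0532) and in 11 of 15 fits that left out 1 library (0.0572 to 0.306, all but those without NK4, NK6, FMSP3 or DP3), but was called within mice 4 to 6 (0.0145).

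Metal transporters had 23 members, 1 called higher. Slc11a2, DMT1, takes up iron and other divalent metals. It was at 48.3, 26.9, 29.2 and 41.7 CPM in NK, 60.6, 79.6 and 61.00 in DN, 78.98, 70.7, 79.5 and 64.4 in FMSP and 107, 75.7, 80.1 and 87.9 in DP. All ILC1 libraries lay above all NK libraries, and the log2 fold change was 1.05 ± 0.19 (edgeR adjusted p = 0.00253). The transferrin receptor Tfrc, which brings the iron that Slc11a2 releases from endosomes, stood at 7.54, 13.1, 9.24 and 13.1 in NK and 1.05 to 15.3 in ILC1s and was not called (adjusted p = 0.678).

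Vitamin, choline, heme and lipid transporters had 17 members, 1 called higher. Slc27a1, FATP1, takes up long-chain fatty acids and had the largest log2 fold change of the members called higher. It was at 4.78, 6.04, 1.49 and 2.65 CPM in NK, 37.1, 30.2 and 33.6 in DN, 56.9, 14.7, 20.01 and 20.5 in FMSP and 60.2, 26.9, 40.1 and 41.3 in DP. No library of the 2 sides overlapped, and the libraries of mouse 3 were the highest. The log2 fold change was 3.19 ± 0.47 (edgeR adjusted p = 4.86e-04) and 3.02 ± 0.41 within mice 4 to 6 (5.66e-04). Of the 8 nucleoside and nucleotide sugar transporters edgeR called 0 and DESeq2 0, with 1 at an unadjusted p below 0.05. The nucleoside carrier Slc28a2 was higher in ILC1s within mice 4 to 6 by a log2 fold change of 0.41 ± 0.12 (adjusted p = 0.0443), and over all libraries it was not called (0.707).

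Among the 5 members that are not carriers 1 was called. Slc9a3r2 encodes NHERF2, a scaffold that anchors exchangers and receptors under the membrane. It was at 2.83, 2.52, 5.87 and 6.44 CPM in NK, 37.8, 15.03 and 16.9 in DN, 54.7, 10.01, 20.2 and 21.4 in FMSP and 70.98, 29.2, 41.6 and 40.9 in DP, so that the libraries did not overlap and those of mouse 3 were highest. The log2 fold change was 2.78 ± 0.50 (edgeR adjusted p = 0.002399). Its relative Slc9a3r1 was at 804, 417, 438 and 366 in NK and 327 to 1115 in ILC1s and was not called (0.983).

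Of the 19 calls 10 held in each of the 15 fits that left out 1 library: Slc27a1, Slc16a10, Slc9a3r2, Slc2a8, Slc16a6, Slc25a23, Slc11a2, Slc25a33, Slc9a7 and Slc37a2. T cell markers, a list of 14 genes that includes the CD3 chains, moved in the same comparison. EdgeR called 8 of them higher and 0 lower, where 2.90% of all genes were called higher and 3.02% lower. Their summed level was 666 to 981 CPM in NK, 2372 to 3175 in DN, 2131 to 3612 in FMSP and 1968 to 2970.4 in DP, with none of the 14 at 0 in all NK libraries. Their part in the carrier differences was not tested.

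The 3 ILC1 populations were then set against NK one at a time. DP cells, with present granzyme C, had 13 members called (8 higher and 5 lower), where 2.51% of all genes were called higher and 1.58% lower. Of the 8 and the 5, 2 and 3 reached 10 CPM in all 4 populations. Slc27a1 at 3.49 ± 0.51, Slc9a3r2 at 3.37 ± 0.55 and Slc16a10 at 3.35 ± 0.62 had the largest log2 fold changes upward, and Slc37a2 at -3.96 ± 0.97 and Slc7a5 at -2.34 ± 0.62 the largest downward. In all 13 the DP and NK libraries did not overlap. With the mouse as a block 21 members were called, the 13 and 8 others, among them Slc2a10 and the citrate carrier Slc25a1, and 9.62% of all genes were called in that fit. The median log2 difference was -0.03 over members and 0.03 over all genes. The calls of Slc7a5, Slc37a2, Slc22a17, Slc25a23 and Slc7a1 were each lost without at least 1 library, at adjusted p 0.05305 to 0.153, 0.0519 to 0.0946, 0.0516 to 0.0958, 0.0545 to 0.0604 and 0.0501 to 0.0598 in that order. The libraries were NK1, NK4, NK5, NK6, all of FMSP and DP4 to DP6 for Slc7a5, NK1, NK4, NK6, DP3, DP4 and DP6 for Slc37a2, NK1, NK4, NK6, DP5 and DP6 for Slc22a17, NK4, NK5 and DP6 for Slc25a23, and NK5, DP4 and DP6 for Slc7a1. The count fell to 8 without DP6 and was 23 within mice 4 to 6, where 3.36% and 9.17% of all genes were called.

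FMSP cells, with past granzyme C, had 11 members called (6 higher and 5 lower), where 2.48% of all genes were called higher and 1.59% lower. Of the 6 and the 5, 2 and 3 reached 10 CPM in all 4 populations. Slc16a10 at 3.10 ± 0.61, Slc27a1 at 2.90 ± 0.50 and Slc2a8 at 2.74 ± 0.46 led upward and Slc37a2 at -3.72 ± 0.96 and Slc7a5 at -2.45 ± 0.62 downward. Without FMSP5 and FMSP6, the libraries rich in hepatocyte RNA, and DN2, Slc27a1 and Slc16a10 stood at 3.26 ± 0.58 and 3.12 ± 0.70 (edgeR adjusted p = 0.00833 and 0.0309). Slc37a2, Slc2a6 and Slc11a2 were not called in that fit and Slc16a1 was, 9 members in all. The block gave 20 calls, the 11 and 9 others, and mice 4 to 6 alone 18, where 9.82% and 8.94% of all genes were called. The count fell to 7 without NK5, NK6, FMSP4 or FMSP5, where 3.02% to 3.34% of all genes were called. Scaling by library totals gave 8 higher and 4 lower, with 4.37% of all genes called. The call of Slc2a6 was lost without NK1, NK5, NK6, DN4, DN6, FMSP3, FMSP4, FMSP5, FMSP6 or DP6, that of Slc37a2 without NK1, NK4, NK5, NK6, DN4, DN6, FMSP4, FMSP5, FMSP6 or DP6, and that of Slc7a5 without NK1, NK4, NK5, NK6, FMSP3, FMSP4, FMSP5, FMSP6 or DP6 (adjusted p up to 0.126 over the 3). Slc9a7 lost it without NK1, NK5, NK6, FMSP3, FMSP4 or FMSP5 and Slc11a2 without NK4 or NK5 (up to 0.0842). Slc37a2 in FMSP was at 6.002 CPM in FMSP3 and at most 0.601 in the other 3.

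DN cells, with neither granzyme C nor its fate-map mark, had 6 members called (5 higher and 1 lower), where 1.81% of all genes were called higher and 1.18% lower. Of the 5 higher, 1 reached 10 CPM in all 4 populations, as did the 1 lower. The 5 were Slc27a1 at 3.17 ± 0.52, Slc9a3r2 at 2.40 ± 0.55, Slc2a8 at 1.96 ± 0.47, Slc16a6 at 1.74 ± 0.35 and Slc25a23 at 1.23 ± 0.31. The members called changed without DN2: then 5 members were called, 2 higher (Slc27a1 and Slc16a6) and 3 lower (Slc46a3, Slc25a33 and Slc7a5). Slc2a8, Slc9a3r2 and Slc25a23 then had adjusted p = 0.138, 0.1396 and 0.0672. The count fell to 3 without NK4, NK5, NK6, FMSP4 or DP5, where 2.11% to 2.55% of all genes were called. RLE scaling (DESeq2's size factors) gave 7 higher and 0 lower, with 2.95% of all genes called. Within mice 4 to 6, which leaves DN4 and DN6, 18 members were called, and the block also gave 18, with all 6 among them in both. Of all genes, 8.04% and 6.96% were called in these fits. Of the 6, Slc27a1 kept its call in all 15 fits that left out 1 library. Slc16a6 lost it without DN4 or DN6 (0.0578 to 0.0631), Slc9a3r2 without NK1, NK4, NK5 or DN2 (0.0549 to 0.1396), Slc2a8 without NK1, NK4, NK5, NK6, DN2, DN4, FMSP4 or DP5 (0.0502 to 0.138) and Slc25a23 in 12 of 15 fits, all but those without NK1, FMSP3 or DP3 (0.0524 to 0.155).

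Slc46a3, a lysosomal carrier, was the 1 member called lower in DN. Its CPM was 48.9, 30.5, 32.8 and 32.96 in NK, 21.1, 11.1 and 11.8 in DN, 45.1, 33.00, 21.6 and 27.8 in FMSP and 37.9, 34.7, 36.3 and 29.5 in DP. DN lay below every library of the other 3 populations and, within DN, DN2 was the highest. Against NK the log2 fold change was -1.31 ± 0.32 (edgeR adjusted p = 0.0367), lost without NK1, NK4, NK5, NK6, DN4, DN6, FMSP4, DP4, DP5 or DP6 (0.05003 to 0.129), and without DN2 -1.67 ± 0.33 (0.0131). DP against DN gave 1.24 ± 0.32, not called over all libraries (0.231) and called within mice 4 to 6 at 1.54 ± 0.22 (0.0251).

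**Figure D2:**
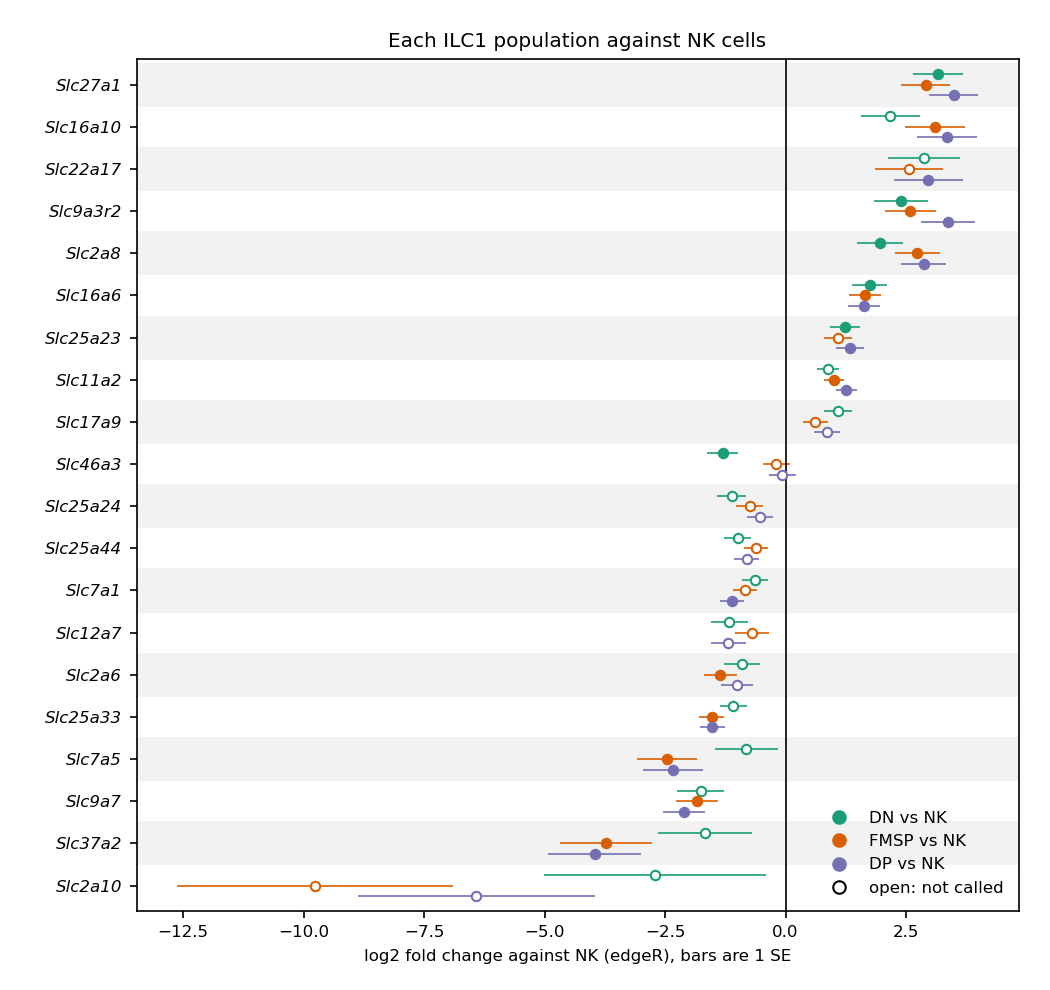
Log2 fold change against NK with 1 SE for DN, FMSP and DP, for the 20 members called in at least 1 comparison with NK. Filled points were called by edgeR. The fitted values of the 3 populations lie on the same side of 0 for each gene. Slc46a3 lies at -1.31 in DN and near 0 in FMSP and DP.

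The comparisons with NK share the NK libraries, so equal values in them are not independent. The ILC1 populations were also compared with each other. EdgeR called 0 members in DP against DN (0.0584% of all genes were called), 0 in FMSP against DN (0.00584%) and 0 in DP against FMSP (0.00584%). At an unadjusted p below 0.05 there were 17, 16 and 5 members, and DESeq2 called 3, 2 and 1. Those of DESeq2 were Slc38a4, Slc39a8 and Slc46a3 for DP against DN, Slc16a13 and Slc39a8 for FMSP against DN, and Slc38a4 for DP against FMSP. Of these 4 genes all but Slc46a3 were highest in DN2. The medians over members were 0.00, -0.07 and -0.01. Without DN2 edgeR again called 0 members in each.

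Several members were high in DN2 alone. In 13 members DN2 was at least 2-fold above the highest of the other 14 libraries, and in each of the other 14 libraries this was so for 0 members. These 13 were picked by that measure, so the values are a description. Among them Slc7a8, Slc39a8, Slc7a7, Slc16a13, Slc38a4 and Slc12a2 reached 10 CPM in a population mean only with DN2. Their place among the 13 therefore partly follows from the rule for members, and the share of all genes was not computed. Slc7a8, the neutral amino acid carrier LAT2, was at 83.2 CPM in DN2 and at most 3.62 elsewhere. Slc39a8, the zinc and manganese importer ZIP8, was at 182 against at most 8.33. Slc7a7, the y+LAT1 chain that exports arginine, was at 155 against 9.22 and Slc16a13, a monocarboxylate carrier of the liver, at 86.02 against 9.93. DN4 and DN6, the other DN libraries, were under 10 CPM in all 4 genes.

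Slc25a4, Slc29a1 and Slc31a1 were read in every library and were higher still in DN2. Slc25a4, the adenine nucleotide carrier ANT1, was at 487 CPM there and 41.4 to 88.4 elsewhere. Slc29a1, the nucleoside carrier ENT1, was at 314 against 26.2 to 84.7, and the copper importer Slc31a1 at 91.8 against 11.3 to 34.5. The iron exporter Slc40a1, the sodium-potassium-chloride cotransporter Slc12a2 and the zinc importer Slc39a10 were 2.93-fold, 2.82-fold and 2.10-fold above the highest other library. Emb, the glycoprotein embigin that partners monocarboxylate transporters, was at 3004 CPM in DN2 and 5.63 to 110.4 elsewhere. The early embryo genes moved with these carriers in DN2, as given above. Kupffer cell markers summed to 315 CPM there and 18.3 to 239 elsewhere, with 239 in DP3 and 141 in FMSP3. Only 4 of the 10 Kupffer cell markers were highest in DN2. The part of either list in the carrier values was not tested.

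**Figure D3:**
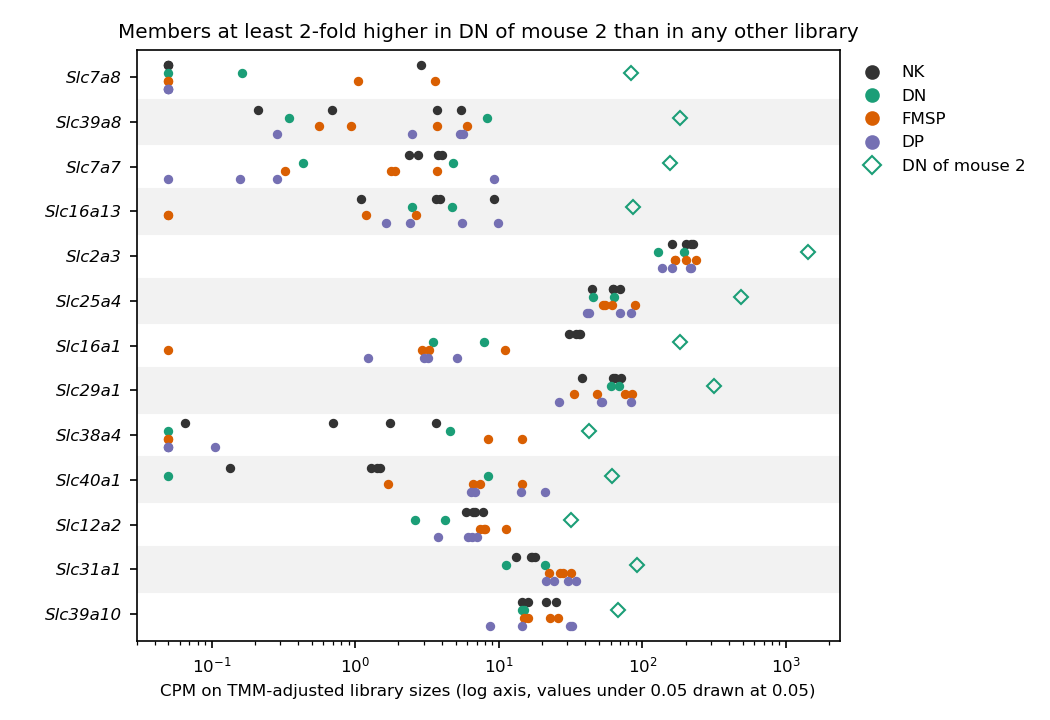
CPM (log axis) of the 13 members at least 2-fold higher in DN2 than in any other library, 1 row per gene and 1 point per library. The open diamond is DN2, which lies to the right of all 14 other points in each row, DN4 and DN6 included.

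Members were then read against hepatocyte RNA. Alb, the albumin gene, was at 102 CPM in DN2, 255 in FMSP5, 608 in FMSP6 and 64.02 in DN4, and between 2.83 and 35.5 in the other 11. Of the 146 members 2 were higher in DN2, FMSP5 and FMSP6 than in each of the other 12 libraries, Slc38a4 and Slc43a3. Both were found by this pattern, so it is given without a test. Slc38a4 is a member only through DN2. The share of all genes with this pattern was not computed, so the count is not read as few or many.

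Slc38a4, an amino acid carrier of hepatocytes, was at 0, 0, 8.41 and 14.4 CPM in FMSP3 to FMSP6, 42.8, 4.55 and 0.0326 in DN2, DN4 and DN6, 3.64, 1.74, 0.0649 and 0.703 in NK and at most 0.105 in DP. Per 100 CPM of Alb it stood at 3.300 in FMSP5 and 2.37 in FMSP6, at 7.11 in DN4 and at 42.04 in DN2. FMSP5 and FMSP6 were near each other in this ratio and DN2 was far above them. Slc43a3, a purine nucleobase carrier, was at 21.8, 23.3 and 22.5 CPM in the 3 libraries and up to 18.2 (DN6) in the other 12. Its values in FMSP5 and FMSP6 were nearly equal while Alb differed more than 2-fold.

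**Figure D4:**
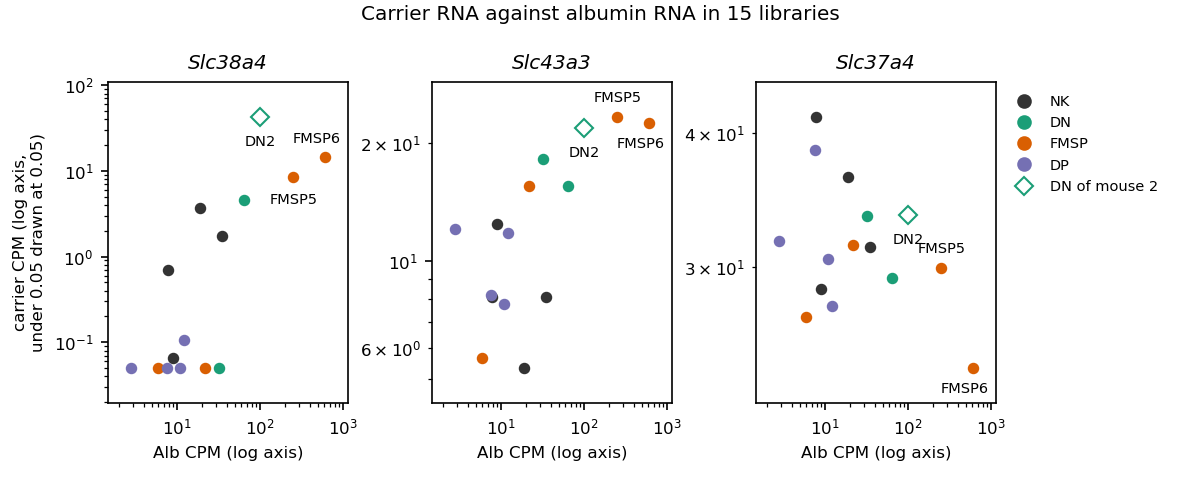
CPM of Slc38a4, Slc43a3 and Slc37a4 (vertical, log axis) against CPM of Alb (horizontal, log axis) in the 15 libraries, coloured by population. Slc38a4 in DN2 lies above FMSP6 although Alb is lower there, and Slc37a4 is at 24.2 CPM, its lowest value, in the library with the most Alb.

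The other carriers of hepatocytes stayed low, but most were highest in a library rich in hepatocyte RNA. Of a list of 20 hepatocyte carriers 3 were members, Slc38a4, Slc37a4 and Slc16a13, and 17 stayed under 10 CPM in every population mean. Of the 20, 18 had their highest CPM in DN2, FMSP5 or FMSP6, and 4 of the 20 stayed under 1 CPM in every library. The bile acid carrier Slc10a1 reached 10.5 CPM in FMSP6 and 5.82 in FMSP5, the bile acid ligase Slc27a5 9.01 in DN2, 6.85 in FMSP5 and 8.61 in FMSP6, and the hepatocyte glucose carrier Slc2a2 5.35 in FMSP6 and 0 in DN2. Slc37a4, the glucose-6-phosphate carrier of the endoplasmic reticulum, was even over all libraries at 24.2 to 41.4 CPM. EdgeR called 0 of the 15 list genes tested in the ILC1 mean, 2 had an unadjusted p below 0.05, and DESeq2 called 0.

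Transport partners and nutrient sensors outside the family were read from lists of their own. Of 20 partner genes edgeR called 4 lower and 1 higher in the ILC1 mean, where 3.02% of all genes were called lower and 2.90% higher. The list was chosen with earlier results known, so these counts are not read as an excess. Atp1b3 and Atp1b1, beta subunits of the sodium-potassium ATPase, were among the lower ones. Atp1b3 was at 780.4, 868, 863 and 965 CPM in NK, 226, 270.1 and 245 in DN, 219, 196, 227 and 218 in FMSP and 221, 185, 205 and 216 in DP. All ILC1 libraries were far below all NK libraries and close to each other, and the log2 fold change was -1.97 ± 0.11 (edgeR adjusted p = 1.90e-07).

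Atp1b1 was at 323, 399, 412 and 437 CPM in NK and 50.6 to 192 in ILC1s, a log2 fold change of -1.57 ± 0.21 (edgeR adjusted p = 1.98e-04). Both were without overlap between ILC1 and NK libraries and were also called in DP, FMSP and DN each against NK, and without DN2. The drug efflux pump Abcb1b was lower too, at -2.97 ± 0.76 (0.02899, and 0.0682 with the mouse as a block). Slco4a1, an organic anion carrier, was higher at 1.46 ± 0.25 (0.00181). Of 22 nutrient sensing genes edgeR called 0 in the ILC1 mean, 4 had an unadjusted p below 0.05 and DESeq2 called 2. Of 25 carriers listed as important in lymphocytes 1 was higher, Slc11a2, and 2 were lower, Slc7a5 and Slc12a7. Over all genes tested 2.90% were called higher and 3.02% lower.

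The members with the most counts are given as a description. The 10 with the highest mean CPM, which ranks counts and not levels per length, were Slc25a5, Slc9a3r1, Slc44a2, Slc25a3, Slc1a5, Slc2a3, Slc3a2, Slc35a4, Slc38a2 and Slc25a11. EdgeR called 0 of them in the ILC1 mean, where 5.92% of all genes tested were called. With 10 genes, 0 calls is near that share and is not read as a trait of abundant carriers. Slc44a2, a choline carrier, was at 402 ± 130.0 CPM in NK, 407 ± 85.3 in FMSP and 400.3 ± 15.2 in DP (mean ± SD, 4 libraries each) and 319 ± 84.7 in DN (3 libraries). Its adjusted p was 0.873 by edgeR.

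Chromatin gave a measure that the rule did not use. The ATAC libraries were of liver NK cells, spleen NK cells, liver ILC1s and salivary gland ILC1s, 2 of each. Their sample labels name S1pr5eGFP+ NK cells and GzmC+GzmcFM+ ILC1s, whereas the series' design text names surface phenotypes, CD49a- CD49b+ for NK cells and CD49a+ for ILC1s. Libraries held 5609587 to 26944890 counts in peaks. The authors' table assigns 379 peaks to 135 members, 174 of them typed as promoter, 112 as intron, 63 as intergenic and 30 as exon. The other 11 members had no peak. Coordinates are of build mm10.

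In liver, 33 member peaks were more accessible in ILC1s than in NK cells and 28 less, of 379, where 9.83% of all peaks were called higher and 8.85% lower (edgeR adjusted p below 0.05). Between salivary gland ILC1s and spleen NK cells 78 were higher and 87 lower, where 22.0% and 26.2% of all peaks were. The members' shares are near those of all peaks. Organ and cell type change together in the salivary gland comparison and cannot be told apart there. Without the second liver ILC1 library 34 member peaks were called in liver. In 44 member peaks both comparisons called the same direction, 23 higher and 21 lower, and in 3 the directions were opposite. These 44 and 3 were 11.6% and 0.792% of the member peaks, against 10.5% and 1.57% of all peaks tested.

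Peaks of the members called in RNA were then read one by one. The 9 members higher in ILC1 RNA had 22 peaks, of which 6 were more accessible in liver ILC1s and 1 less. The 10 members lower in RNA had 37 peaks, of which 1 was more accessible and 10 less. The promoter peak of Slc27a1 (chr8:71569370-71571062) held 19.1 and 13.99 CPM in liver NK, 40.5 and 44.5 in liver ILC1s, 23.6 and 20.7 in spleen NK and 51.2 and 52.7 in salivary gland ILC1s. ILC1 libraries of both organs were above the NK libraries of both organs, and the log2 fold changes were 1.36 ± 0.20 in liver (edgeR adjusted p = 7.84e-10) and 1.23 ± 0.18 for salivary gland against spleen (1.62e-10).

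The promoter peak of Slc9a3r2 (chr17:24649300-24650650) held 14.6 and 12.7 CPM in liver NK and 29.3 and 26.7 in liver ILC1s, a log2 fold change of 1.03 ± 0.21 (edgeR adjusted p = 2.72e-05), with 0.96 ± 0.19 in the other comparison (3.49e-06). For Slc11a2 the promoter peak at chr15:100419143-100420905 held 25.97 and 22.4 CPM and 48.01 and 54.03 in the same order, with log2 fold changes of 1.08 ± 0.19 (7.67e-07) and 0.69 ± 0.18 (4.86e-04). In these 3 genes promoter accessibility and RNA were both higher in ILC1s.

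**Figure D5:**
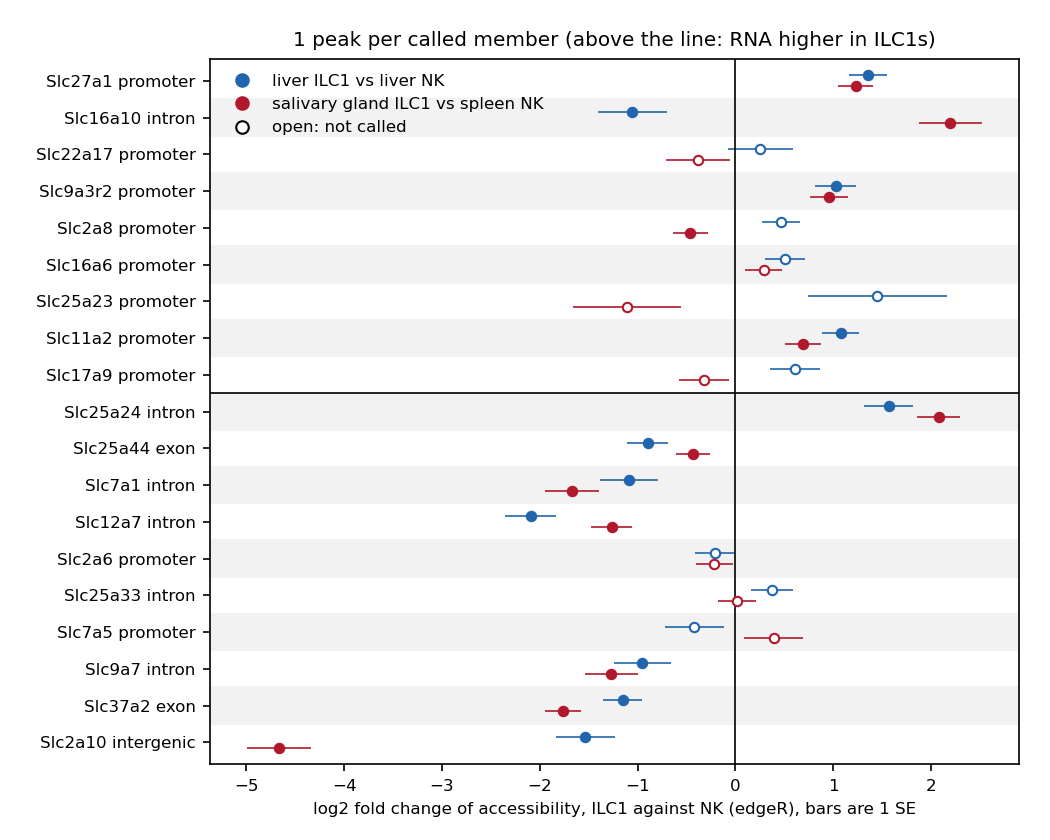
Log2 fold change of accessibility with 1 SE, ILC1 against NK, in liver and between salivary gland and spleen, for the peak with the smallest p in liver of each member called in RNA of the ILC1 mean (2 libraries per group). Genes above the line were higher in ILC1 RNA and genes below it lower, and filled points were called. Slc27a1, Slc9a3r2 and Slc11a2 lie to the right of 0 in both comparisons, and Slc25a24 does too although its RNA was lower in the ILC1 mean.

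Slc37a2 had 3 called peaks inside the gene, all less accessible in liver ILC1s. The one in an exon at chr9:37229762-37231306 held 48.9 and 50.5 CPM in liver NK and 23.3 and 21.5 in liver ILC1s, a log2 fold change of -1.15 ± 0.20 (edgeR adjusted p = 2.55e-07). The intergenic peak assigned to Slc2a10 at chr2:165530849-165531704 held 12.1 and 13.5 and 5.53 and 3.51 CPM in liver and 23.00 and 17.9 and 1.23 and 0.494 in spleen NK and salivary gland ILC1s. Its log2 fold changes were -1.54 ± 0.30 (1.23e-05) and -4.67 ± 0.33 (3.45e-43). Intron peaks of Slc12a7, Slc7a1 and Slc9a7 were also less accessible in liver ILC1s, at -2.09 ± 0.26, -1.09 ± 0.30 and -0.95 ± 0.29 (adjusted p = 1.19e-13, 0.00298 and 0.0102). The liver call of Slc7a1 was lost without the second liver ILC1 library (0.0839), and that of Slc9a7 without that library or the second liver NK library (0.136 to 0.281).

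RNA and accessibility did not always go together. The intron peak of Slc25a24 at chr3:109164920-109165894 was more accessible in ILC1s, with 5.74 and 6.595 CPM in liver NK and 16.6 and 19.7 in liver ILC1s. The log2 fold change was 1.57 ± 0.25 (edgeR adjusted p = 2.21e-08). The RNA of Slc25a24 was lower in the ILC1 mean, a call lost in 12 of 15 fits that left out 1 library. In DP against NK it was not called over all libraries. For Slc25a33, Slc7a5, Slc2a6, Slc16a6, Slc2a8, Slc17a9, Slc22a17 and Slc25a23 no peak was called in liver. The intron peak of Slc16a10 at chr10:40073411-40074156 was less accessible in liver ILC1s at -1.06 ± 0.35 (0.0206, lost without either liver NK library or the second liver ILC1 library at 0.0517 to 0.260) and more accessible in salivary gland ILC1s at 2.20 ± 0.32 (1.16e-10).

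Promoter sequences from RefSeq (build GRCm38.p6, the assembly that mm10 names) were matched by symbol for 110 of the 146 members. The windows run from 250 bases before to 50 after a start. The windows of Slc27a1 and Slc9a3r2 are shown because both lie inside a promoter peak that was more accessible in ILC1s in both comparisons, beside higher RNA. That of Slc25a33 is shown as a member with lower RNA whose promoter peak was not called. They are chr8:71570344-71570643 on the + strand, chr17:24650256-24650555 on the - strand and chr4:149774218-149774517 on the - strand. Capitals mark matches on either strand to a GC box (GGGCGG, bound by Sp and Klf factors), a T-box core (AGGTGT), a Runx core (TGTGGT) or an ETS core (CCGGAA).
Slc27a1: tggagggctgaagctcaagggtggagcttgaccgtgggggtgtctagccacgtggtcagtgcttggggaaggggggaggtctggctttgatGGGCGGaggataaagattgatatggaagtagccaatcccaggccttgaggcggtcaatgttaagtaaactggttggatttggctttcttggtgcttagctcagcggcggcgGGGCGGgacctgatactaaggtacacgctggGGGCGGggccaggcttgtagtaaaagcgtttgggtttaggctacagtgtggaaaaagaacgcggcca
Slc9a3r2: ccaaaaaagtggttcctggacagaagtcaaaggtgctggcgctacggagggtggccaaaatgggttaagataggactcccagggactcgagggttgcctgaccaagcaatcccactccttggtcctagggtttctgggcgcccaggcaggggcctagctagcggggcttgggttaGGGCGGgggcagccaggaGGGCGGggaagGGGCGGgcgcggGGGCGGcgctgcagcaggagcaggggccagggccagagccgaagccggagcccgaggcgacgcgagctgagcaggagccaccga
Slc25a33: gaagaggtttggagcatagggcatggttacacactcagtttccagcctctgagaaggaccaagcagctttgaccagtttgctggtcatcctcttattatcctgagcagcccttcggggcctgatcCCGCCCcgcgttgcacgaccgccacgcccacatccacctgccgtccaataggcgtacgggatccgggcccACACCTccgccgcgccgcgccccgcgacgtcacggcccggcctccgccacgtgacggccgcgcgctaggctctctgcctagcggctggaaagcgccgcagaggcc

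The window of Slc27a1 held 3 GC boxes, that of Slc9a3r2 held 4, and that of Slc25a33 held 1 with 1 T-box core. Of 32851 promoter windows 35.7% held at least 1 GC box, 13.7% a T-box core, 16.8% a Runx core and 14.9% an ETS core. Among the 152 windows of members the shares were 73.03%, 12.5%, 11.8% and 26.97%. The members were chosen by expression, and no set of windows matched for expression was read. The differing shares are therefore not read as a trait of carriers. Neither the Slc27a1 nor the Slc9a3r2 window held a T-box, Runx or ETS core on either strand. These matches describe letters and not binding.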

How the data were processed

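For RNA the authors deposited estimated counts (expected counts) of genes, already whole. The tools named in the submitters' processing notes are Salmon 1.6, DESeq2, Bowtie2, SAMtools and MACS2, with build mm10 and no roles given. The ATAC values were deposited by the authors as read counts in 51412 shared peaks with an assigned gene and type. How reads shared by close relatives (Slc25a4 and Slc25a5, for example) were split, and whether strand was used, is not given in the sources used here. Symbols had become dates in 26 entries, which held 0.265% of counts and stayed in the fits.

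Members were taken by CPM from column sums. The tests used edgeR 4.0.16 in R 4.3.3: filterByExpr at a minimum count of 10 (17124 genes and 51292 peaks left), TMM, robust quasi-likelihood fits with 1 mean per group over all libraries of an assay, 2-sided p, Benjamini-Hochberg adjustment over all features of a comparison, and a call at an adjusted p below 0.05. SE is the log2 fold change over the root of F. Residual degrees of freedom were 11 for RNA and 4 for ATAC. DESeq2 1.42.0 was an alternative, beside other scalings, no filter, single libraries left out, mice 4 to 6 alone and a mouse block. The fits were tested on simulated data.

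Labels name the mouse of every RNA library, so libraries of 1 animal are paired. Deviations from group means correlated at a median r of 0.113 over 16 pairs of 1 mouse and -0.0266 over 68 other pairs. Mice 1 and 2 gave 1 library each (NK1 and DN2) and mouse 3 a pair (FMSP3 and DP3), so that mice 1 to 3 hold 1 library of each population and allow no replicated comparison. With the mouse as a block, a mouse of 1 library is fitted by its own term. NK1 and DN2 then carry no weight in the fold changes. ATAC replicates carry the numbers 1 and 2 only, and p-values there measure the spread between those libraries.

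The members, the gene lists and the rule for named genes were chosen with earlier results of these data known. The rule named, per RNA comparison, up to 12 members in each direction that were called without overlap, all members of the gene lists, the 10 with the highest mean CPM, those that follow Alb, and 3 on either side of the threshold. Other members are named where a setting, a library or a peak set them apart, after their values were seen. The early embryo list was added after the values were seen. Some genes of the lists are not reported here. Of the other lists, B cell markers had 1 of 6 genes called higher (Ighm), the endothelial, Kupffer cell and red cell lists 0 of 7, 10 and 7 by edgeR in the ILC1 mean (2, 2 and 0 at an unadjusted p below 0.05, and 2, 1 and 0 by DESeq2).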

Additional observations from a re-analysis of the deposited data

Results flagged for a closer look

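In groups of 4 libraries, 12 of 102 sets of CPM had 1 library far from the other 3. The measure was Dixon's ratio, the gap to the nearest value over the range. Its usual rate of about 1 in 20 holds for normal values, whereas CPM are skewed and some sets are mostly 0. No excess over chance can be read from the 12. Slc12a7 was at 221 CPM in NK1 and Slc46a3 at 48.9 there, both above the other NK libraries, and Slc7a8 at 2.89 CPM in NK1 with 0 in the others. Slc40a1 was at 0.135 CPM in NK6, below the other 3. In FMSP3 Slc27a1 was at 56.9 CPM and Slc37a2 at 6.002, each above the other FMSP libraries. Slc16a10 was at 28.5 CPM in DP4 and Slc7a7 at 9.22 in DP3, above the other DP libraries. The remaining 4 were single libraries above 0 where the other 3 of the group held 0 or close to it: Slc2a10 at 0.0529 CPM in FMSP6 and 0.596 in DP6, Slc38a4 at 0.105 in DP6 and Slc7a8 at 0.0175 in DP6.

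In 3 member peaks ILC1s differed from NK cells in opposite directions in liver and between salivary gland and spleen (0.792% of member peaks, against 1.57% of all peaks tested). The difference of the 2 differences was tested with edgeR over all peaks, liver minus the other comparison, a test added after the peaks were seen. These peaks were picked by their opposite calls in the same libraries. Low adjusted p-values follow from that choice and add no support. It was -3.25 on the log2 scale for the intron peak of Slc16a10 (adjusted p = 9.40e-10), 1.02 for a promoter peak of Slc3a2 at chr19:8722667-8723933 (0.00122) and -1.06 for the promoter peak of Slc16a1 at chr3:104637806-104639670 (5.78e-04). For Slc3a2 the liver value was 0.57 ± 0.20 and the other -0.45 ± 0.18, and for Slc16a1 -0.55 ± 0.19 and 0.52 ± 0.18. Each of these 4 calls was lost when at least 1 library was left out (adjusted p up to 0.466).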

How the results depend on the processing

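The counts of members called moved with several settings, and so did the share of all genes called. The numbers pair libraries of 1 animal, and with the mouse as a replicate block the calls were 26 in the ILC1 mean, 21 in DP, 20 in FMSP and 18 in DN against NK, and 0 between ILC1 populations, with 12.7, 9.62, 9.82 and 6.96% of all genes called against NK (over all libraries without the block 5.92, 4.08, 4.07 and 2.99%). Mice 4 to 6 alone gave 31, 23, 18 and 18 against NK (13.2, 9.17, 8.94 and 8.04% of all genes), and 1, 0 and 0 for DP against DN, FMSP against DN and DP against FMSP. DESeq2 gave 27, 22, 18 and 20 (10.8, 8.75, 8.49 and 8.07%), and 3, 2 and 1 in the same order. Fitting only the compared populations gave 1 call for DN against NK, with 1.67% of all genes called. Leaving out 1 library at a time gave 11 to 21 calls in the ILC1 mean, 8 to 14 in DP, 7 to 13 in FMSP and 3 to 8 in DN, and 0 in each comparison between ILC1 populations. The share of all genes called against NK ran from 4.30 to 7.08%, 3.17 to 4.66%, 3.02 to 4.55% and 2.11 to 3.67% in that order. Scaling by library totals took the median over all genes from 0.08 to 0.21 in the ILC1 mean.

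Slc16a1 in DN against NK, uncalled at 0.92 over all libraries, turned to -3.14 with the replicate block, -2.58 within mice 4 to 6, -2.60 without DN2, FMSP5 and FMSP6 and -2.60 without DN2, with 1.45 without DN4 as the highest of the fits that left out 1 library. The settings that turned it all took DN2 out of this fold change. Either DN2 was left out, or the block gave mouse 2, which holds DN2 alone, a term of its own. Why DN2 was high was not tested. Over the fold changes of members called in each RNA comparison, and of the few others listed beside them, fits with 1 library left out kept direction and call in 637 cases, lost the call in 156, gained it in 1 and turned the direction in 1. Member peaks called ran from 34 to 76 in liver and 124 to 184 for salivary gland against spleen with 1 library left out, and stayed within 1.5 times of 61 and 165 under the other settings tried. With 2 ATAC libraries per group and 3 or 4 RNA libraries, counts near 0 and small differences were not detectable at this depth and number.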
